A study of Saccharomyces cerevisiae with 2 samples.

Results

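The genes examined here encode 6 enzymes with which budding yeast grows on non-fermentable carbon: PCK1, FBP1, ICL1, MLS1, ADH2 and ACS1. Their contacts were read from Genome Conformation Capture (GCC), in which cross-linked chromatin is cut with MspI, ligated and sequenced, so that each count is a sequenced ligation product joining 2 MspI fragments. A fragment was taken as a member when its annotation named one of the genes as a whole word, which gave 32 of the 13259 nuclear fragments in the tables of uniquely mapped sequences. Of these, 22 overlapped the gene and 10 named it only as the nearest gene.

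Saccharomyces cerevisiae BY4741, a laboratory strain deleted for all or part of HIS3, LEU2, MET15 and URA3, was grown at 30 °C to an optical density of 0.6 in synthetic complete medium with either glycerol lactate or galactose, 1 combined library each. The glycerol lactate medium also held a trace of glucose, and the galactose medium held 2% galactose. The authors joined the sequences of 2 biological replicates in each library, so no spread between replicates can be given and no test between the conditions was made. Intervals below are 95% intervals that cover counting error only and treat counts as independent, which amplified copies of a ligation are not.

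PCK1 (phosphoenolpyruvate carboxykinase) and FBP1 (fructose bisphosphatase) encode the enzymes of the irreversible steps by which gluconeogenesis bypasses glycolysis. ICL1 (isocitrate lyase) and MLS1 (malate synthase) encode the enzymes particular to the glyoxylate cycle, which builds sugar precursors from acetyl units. ADH2 (alcohol dehydrogenase II, which oxidises ethanol) and ACS1 (acetyl-CoA synthetase) feed that cycle. Glucose represses these genes, and the kinase Snf1 with the activators Cat8 and Adr1 turns them on when glucose runs out. Transcript levels are not part of the counts described here.

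The members lie on different chromosomes. PCK1 is on chromosome XI (630790 to 632439, plus strand) and was covered by 10 fragments. FBP1 is on XII (873745 to 874791, minus strand) with 5 fragments, and ICL1 on V (285239 to 286912, minus strand) with 5. MLS1 (XIV, 406360 to 408024, plus strand), ADH2 (XIII, 873290 to 874336, minus strand) and ACS1 (I, 42882 to 45023, minus strand) had 4 each. Positions are coding regions on the RefSeq S288C sequences that the study's methods name. PCK1, ADH2 and ACS1 lie under 60 kb from a chromosome end, at 34.8, 50.6 and 44.0 kb. The fragments ran from 12 to 1916 bp.

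The uniquely mapped tables held 3221104 counts in glycerol lactate and 2338837 in galactose, and the libraries differed in composition: neighbouring fragments of a chromosome held 82.3% of the counts of nuclear fragments in glycerol lactate and 57.6% in galactose. A count between neighbours can also be a read through an uncut MspI site, and the 2 cannot be told apart. The deletions carried by both cultures were visible: fragments mostly inside LEU2, MET15 and URA3 had 0 to 2 counts in either library, against medians of 310.5 to 446.5 for fragments of like length, while no listed fragment lay mostly inside HIS3. Pairs of nuclear fragments with the ligation controls held 8 counts in glycerol lactate and 38 in galactose, and none of them was with a member. The study's supplementary methods name only the glucose and galactose samples for the control added before ligation. The libraries therefore cannot be compared on these counts.

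Neighbouring fragments were the largest class for every member in both libraries. The 6 genes held 8263 counts in glycerol lactate and 6814 in galactose. The adjacent share was 71.0% in glycerol lactate (5863 counts; 95% Wilson interval 70.0 to 71.9%) and 44.2% in galactose (3009 counts; 43.0 to 45.3%). Both shares were below those of all nuclear fragments, but the way of counting differs and by itself lowers the adjacent share of the members. A contact that leaves the 6 genes enters their total in full. In the genome totals each contact between nuclear fragments is shared by the fragments it joins. The size of the gap therefore cannot be read from these shares. The fall from glycerol lactate to galactose was seen in each gene. ICL1 had the highest shares, 84.5% and 53.4%, and FBP1 had 58.7% in glycerol lactate and 41.3% in galactose.

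**Figure D1:**
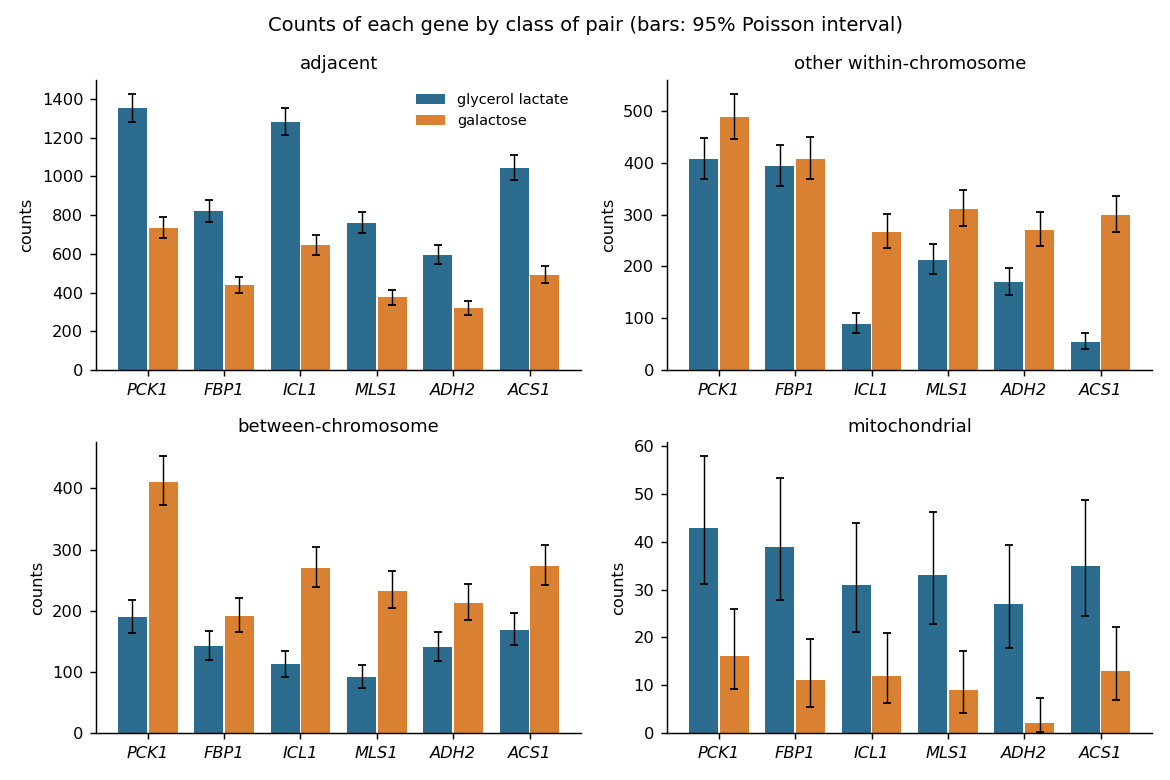
Counts of each gene in glycerol lactate (blue) and galactose (orange) for the 4 classes of pairs, each pair counted once. Error bars are 95% Poisson intervals, and each panel has its own vertical axis starting at 0. Adjacent and mitochondrial counts were higher in glycerol lactate for every gene, and other within-chromosome and between-chromosome counts were higher in galactose.

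Since the classes differ so much in size between the libraries, each glycerol lactate to galactose ratio is given relative to the ratio of the class totals over all nuclear fragments, so that 1 means that a gene moved with its class. A gene was called when this relative ratio was at least 2-fold either way. For adjacent pairs the relative ratio of the 6 genes was 1.02 (0.973 to 1.06). The single genes lay between 0.963 for PCK1 (1354 and 734 counts) and 1.10 for ACS1 (1046 and 494 counts). None of the 6 was called, against 0.0671% of 4472 genes, and none had an interval that left out 1, against 26.9%.

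The adjacent counts were distributed unevenly over the loci. Of 40 MspI sites that bound a member fragment, 35 had counts and their relative ratios ran from 0.591 to 1.502. The interval left out 1 at 5 of them, against 22.6% of 12769 sites across the nuclear genome. FBP1 held 2 of these in the region upstream of its start codon: the site at -468 had 94 counts in glycerol lactate and 83 in galactose (relative ratio 0.591, 0.435 to 0.804), and the site at -503 had 81 and 66 (0.640, 0.457 to 0.900). The FBP1 site at -423, just downstream of these, had 129 and 58 counts (1.16, 0.845 to 1.61). At ICL1 the site at 1419 bases from the start codon had 277 and 193 counts (0.749, 0.621 to 0.905). At MLS1 the site at 1051 bases had 190 and 66 (1.502, 1.13 to 2.02), the only site with an interval above 1. The remaining one lay past the end of PCK1, at 1960 bases, with 227 and 148 counts (0.800, 0.648 to 0.991).

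**Figure D2:**
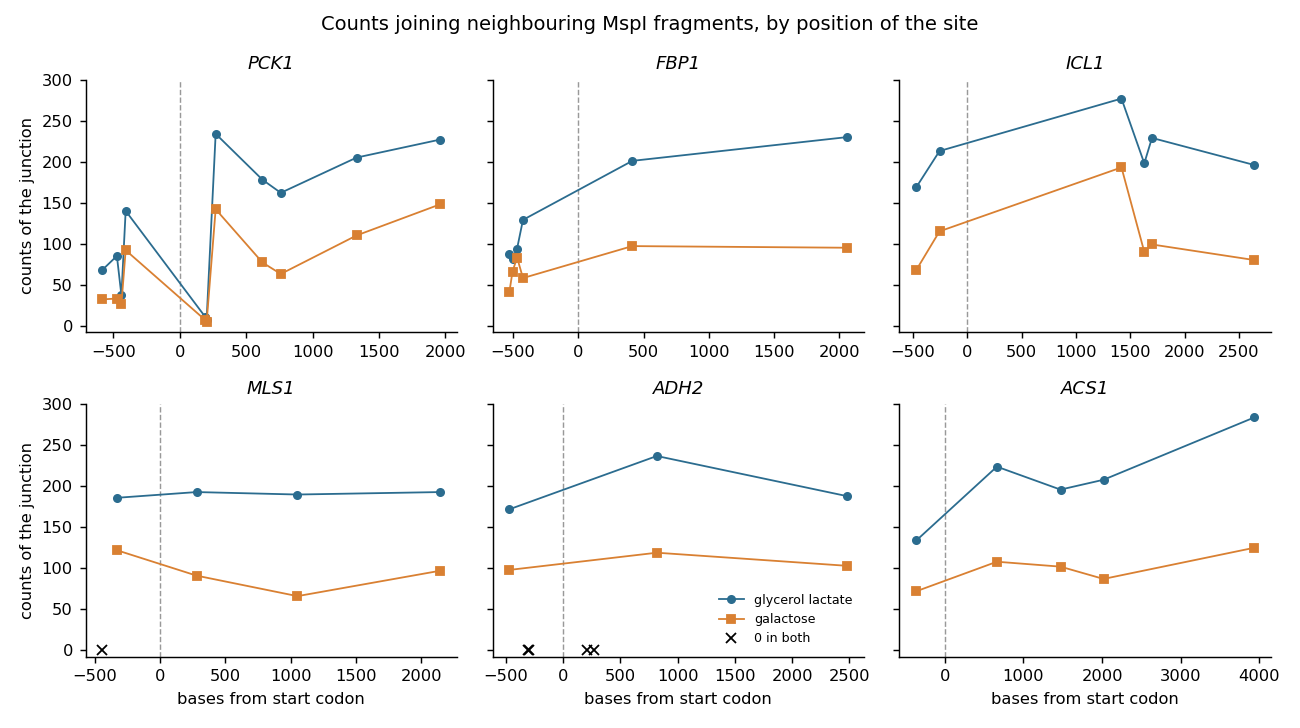
Counts joining the 2 fragments at each MspI site against the distance of the site from the start codon in bases, for glycerol lactate (blue circles) and galactose (orange squares). Crosses mark sites at 0 in both libraries, each next to a fragment absent from the uniquely mapped tables. The count was higher in glycerol lactate at every site with counts, and the sites on either side of the 12-bp fragment of PCK1 had 4 to 11 counts.

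ADH2 had low adjacent counts for the length of its fragments, 0.569 times the mean of like-sized nuclear fragments in glycerol lactate and 0.576 times in the galactose library. Its sites at 267, 210, -297 and -305 bases from the start codon had 0 counts in both libraries, as had the MLS1 site at -441. At -297, -305 and the MLS1 site the fragment on the far side was listed in no table, so no count was possible. The empty ADH2 sites enter the low ADH2 values given here. ADH2 is near-identical to ADH1, the fermentative alcohol dehydrogenase gene, over part of its length. A 57-bp ADH2 fragment, between the sites at 267 and 210, was listed only in the tables of all mapped sequences. In those tables ADH2 had 1292 between-chromosome counts in glycerol lactate and 1240 in galactose, in place of 140 and 213, and 79.9% and 62.6% of them were with ADH1 fragments. Such reads cannot be placed on one gene or the other, so uniquely mapped counts are used for ADH2 below unless stated. For the other 5 genes the tables of all mapped sequences changed the adjacent counts by a factor of 1.00 to 1.02.

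Contacts with non-neighbouring fragments of the same chromosome gave 1329 counts in glycerol lactate and 2045 in galactose, a relative ratio of 1.36 (1.27 to 1.45). FBP1 had the highest relative ratio, with 394 and 408 counts (2.02, 1.75 to 2.32). PCK1 followed with 407 and 488 counts (1.74, 1.52 to 1.99). MLS1 had 213 and 311 (1.43, 1.20 to 1.71), and ADH2 170 and 271 (1.31, 1.07 to 1.59). ICL1 had 90 and 267 counts (0.704, 0.548 to 0.897), and ACS1 had 55 and 300 (0.383, 0.282 to 0.512). FBP1 was called higher and ACS1 lower, against 2.9% of 4483 genes called higher and 48.3% called lower. All 6 intervals left out 1, against 83.2%. Of these, 4 lay above 1, against 16.4% of all genes, and 2 below, against 66.8%. With all mapped sequences the call of FBP1 ended (0.896, 0.783 to 1.02), every member lay below 1, and the ratio of the 6 genes was 0.619. There the counts of the 6 genes were 1.08 and 1.09 times the uniquely mapped ones, while the class totals that set the scale went from 226821 to 4041119 in glycerol lactate and from 473529 to 3876433 in galactose. The ratios above 1 of MLS1 and ADH2 each rested on 1 pair, without which they were 0.512 (0.384 to 0.674) and 0.657 (0.498 to 0.858). With only fragments that overlap the gene MLS1 had 0.469 (0.337 to 0.642). The median gene stood at 0.511 in this class, so that ICL1 lay at percentile 65.4 of all genes and ACS1 at 25.9 in spite of their ratios below 1. FBP1 lay at percentile 97.2, PCK1 at 94.0, MLS1 at 88.5 and ADH2 at 85.7, all with uniquely mapped counts.

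**Figure D3:**
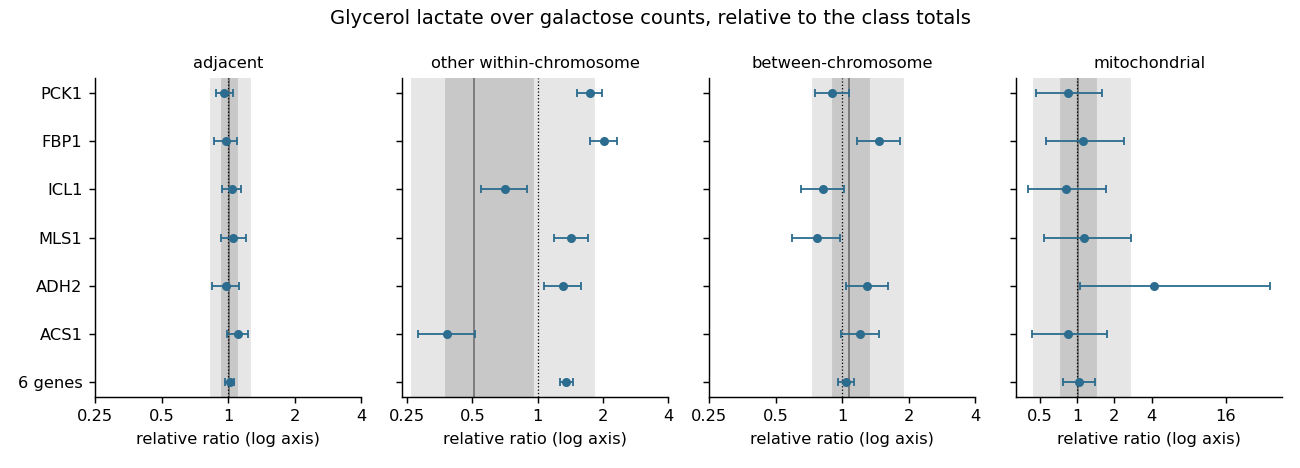
Relative ratio of glycerol lactate to galactose counts per gene and for the 6 genes together, on a log axis, with exact 95% counting intervals. Grey bands give the 5th to 95th and the 25th to 75th percentiles over all genes, the grey line their median, and the dotted line a ratio of 1. Adjacent ratios sat near 1, other within-chromosome ratios ranged from 0.383 to 2.02, and the interval of ADH2 in the mitochondrial class reached from 1.06 to 36.6.

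The high counts of this class came from pairs that skip a very short fragment. In PCK1, the 597-bp fragment that holds the start codon and the 68-bp fragment across 12 skipped bases had 139 counts in glycerol lactate and 68 in galactose. The 111-bp fragment upstream of MLS1 and the neighbouring DCP2 fragment (DCP2 encodes the mRNA decapping enzyme) had 148 and 46. The 507-bp start codon fragment of ADH2 and the 163-bp fragment upstream of it had 97 and 39. FBP1 had 82 and 61 counts between 2 of its upstream fragments, 45 and 24 bp long, and ICL1 had 47 and 16 between its 210-bp fragment and the 941-bp fragment beyond the gene. ACS1, whose fragments are all 547 bp or longer, had no such pair, and its best partner in glycerol lactate was the fragment of AIM2 and GEM1, 8.54 kb away, with 5 and 2 counts. In galactose its best partners were a GPB2 fragment and its own start codon fragment paired with its longest one, each with 0 counts in glycerol lactate and 6 in galactose.

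Pairs across under 100 skipped bases held 67.0% of the non-adjacent within-chromosome counts of the 6 genes in glycerol lactate and 18.0% in galactose. Over all nuclear fragments these shares were 58.3% and 11.0%. Relative to the totals of such pairs, the ratio of the 6 genes was 0.949 (0.840 to 1.07). Partners at 10 kb or more held 162 and 1032 counts, a relative ratio of 1.03 (0.870 to 1.22). The value of 1.36 for the class as a whole was found neither for the closest nor for the distant partners taken against their own totals. Pairs that fall between these ranges were given no ratio of their own, and theirs may differ from 1. This split by distance was chosen after the data were seen.

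**Figure D4:**
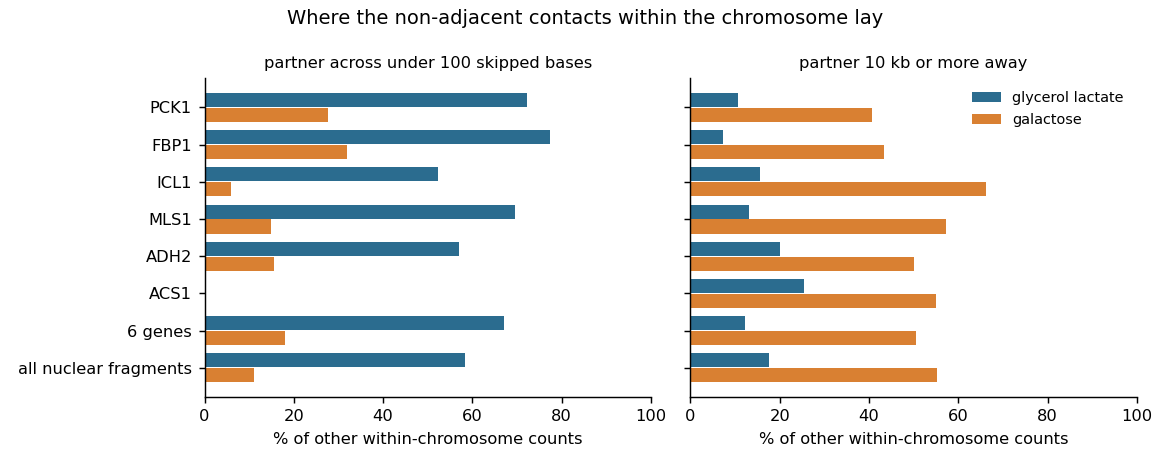
Share of the non-adjacent within-chromosome counts, in percent, that joined fragments across under 100 skipped bases (left) or fragments 10 kb or more apart (right), for each gene, the 6 genes together and all nuclear fragments. Glycerol lactate is blue and galactose orange. The close pairs held 67.0% of the counts of the 6 genes in glycerol lactate and 18.0% in galactose, and ACS1 had none.

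At 10 kb or more the genes differed. ADH2 had 34 counts in glycerol lactate and 136 in galactose (1.64, 1.09 to 2.41), at percentile 92.0 of all genes. PCK1 had 43 and 199 (1.42, 0.998 to 1.99), FBP1 29 and 177 (1.08, 0.701 to 1.60) and MLS1 28 and 178 (1.03, 0.669 to 1.55). ICL1 had 14 and 177 (0.520, 0.279 to 0.897) and ACS1 14 and 165 (0.558, 0.299 to 0.964), at percentiles 5.61 and 7.25. No member passed 2-fold, against 7.72% of 4483 genes, and 3 of 6 had an interval that left out 1, against 13.3%.

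Between chromosomes the 6 genes had 842 counts in glycerol lactate and 1591 in galactose, a relative ratio of 1.04 (0.954 to 1.13). None of the 6 was called, against 3.54% of 4494 genes. The gluconeogenic pair lay on either side of 1: PCK1 had 189 and 411 counts (0.903, 0.756 to 1.07) and FBP1 142 and 191 (1.46, 1.17 to 1.82). Both glyoxylate cycle genes lay below 1, ICL1 with 112 and 270 counts (0.814, 0.647 to 1.02) and MLS1 with 91 and 233 (0.767, 0.595 to 0.981). ADH2 had 140 and 213 (1.29, 1.03 to 1.60) and ACS1 168 and 273 (1.21, 0.991 to 1.47). The intervals of FBP1, MLS1 and ADH2 left out 1, which held for 34.0% of all genes. These values depend on the mapping. With all mapped sequences MLS1 passed 2-fold (0.458, 0.368 to 0.566), and the share of all genes that did so was not taken. There PCK1 had 0.566 (0.487 to 0.657), ICL1 0.619 (0.517 to 0.740), ACS1 0.721 (0.610 to 0.851), FBP1 1.02 (0.843 to 1.23) and ADH2 1.13 (1.04 to 1.22). MLS1 then had 125 and 295 counts in place of 91 and 233. The class totals that set the scale went from 188397 to 2248371 in glycerol lactate and from 369771 to 2428736 in galactose.

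Almost all of these contacts were single counts. Of 765 between-chromosome pairs of the members in glycerol lactate, 90.5% had 1 count, and of 1512 in galactose 95.1%. Over all nuclear pairs of this class 90.7% and 93.9% had 1 count. No pair had more than 3 counts. Pairs seen in both libraries numbered 14, or 1.83% of the glycerol lactate and 0.926% of the galactose pairs, beside 1.51% and 0.735% for all nuclear pairs of this class. Only 4 pairs in glycerol lactate and 5 in galactose reached 3 counts. The study's supplementary methods derive this level as a noise cut-off for pairs of mitochondrial with nuclear fragments, and it is used here on another class. Each of these 9 between-chromosome pairs was at 0 in the other library. The share of all nuclear pairs that reach 3 counts was not taken, so these numbers have no background beside them. In glycerol lactate ADH2 fragments met UBP3 (chromosome V), CYC3 (I) and RAX2 (XII), and the fragment upstream of ICL1 met FAP1 (XIV). In galactose the fragment upstream of ADH2 met CHC1 (VII) and ECM38 (XII), FBP1 met SSD1 (IV), and ICL1 met the fragment of MET2 and BOR1 (XIV). CYC3 encodes the lyase that attaches haem to cytochrome c, UBP3 a ubiquitin protease and CHC1 the clathrin heavy chain.

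No uniquely mapped pair joined fragments of 2 different member genes in either library. The tables of all mapped sequences held 1 such count, in galactose, between ADH2 and MLS1. At 842 and 1591 between-chromosome counts, 0 counts allow a share of up to 0.356% and 0.189% of these, respectively, and contacts among the members were not detectable at this depth. The share that random pairing would give was not taken, so the 0 cannot be read as a lack of contacts.

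Partners under 60 kb from a chromosome end made up 14.6% of between-chromosome counts over all fragments in glycerol lactate and 14.5% in galactose, and 20.7% and 20.3% for fragments that themselves lie so close to an end. Of the 3 members in that zone, ACS1 had 22.0% with glycerol lactate (16.4 to 28.9%) and 16.1% with galactose (12.2 to 20.9%). ADH2 had 11.4% (7.16 to 17.8%) and 21.1% (16.2 to 27.1%), and PCK1 had 14.8% and 16.5%. The intervals of the libraries overlapped for each of the 3 genes, which does not show that the shares were equal. The difference was not tested. The members farther inside the chromosomes had between 10.5% and 14.1%.

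With mitochondrial DNA the 6 genes had 208 counts in glycerol lactate and 63 in galactose. These were 2.52% (2.20 to 2.88%) and 0.925% (0.723 to 1.18%) of their counts, beside 2.97% and 1.24% for all nuclear fragments. The shares are not on the same footing: over the whole genome a pair of nuclear fragments counts once, though it touches both. A pair that leaves the 6 genes counts in full for them. The length-matched values below are free of this difference. The relative ratio was 1.03 (0.774 to 1.39), so the members together moved with the class. PCK1 had 43 and 16 counts (0.839, 0.463 to 1.60), FBP1 39 and 11 (1.11, 0.556 to 2.40), ICL1 31 and 12 (0.806, 0.403 to 1.72), MLS1 33 and 9 (1.14, 0.536 to 2.72) and ACS1 35 and 13 (0.840, 0.434 to 1.73). ADH2 stood apart with 27 counts in glycerol lactate and 2 in galactose (4.21, 1.06 to 36.6), at percentile 97.1. It was the only one of the 6 called higher, against 11.2% of 4481 genes (7.48% were called lower, and no member), and the only one with an interval that left out 1, against 4.64%. The ADH2 ratio rests on the 2 counts in galactose: with all mapped sequences the counts were 42 and 10 and the ratio fell to 1.67 (0.822 to 3.72), and without its strongest pair it was 3.59 (0.887 to 31.4).

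The strongest mitochondrial pairs were few. ADH2 had 4 counts in glycerol lactate and 0 in galactose with the mitochondrial fragment from 60563 to 62559, which is annotated with SCEI, the intron-encoded homing endonuclease. ACS1 had 1 and 3 counts with the same fragment, and over the 6 genes it was the most frequent mitochondrial partner in both libraries, with 12 counts in glycerol lactate and 5 in galactose. It took 5.77% and 7.94% of the members' mitochondrial counts, and 1.98% and 2.60% of those of all nuclear fragments. The fragment was picked as the most frequent partner in these same counts, which by itself raises its share among the members. A fragment upstream of PCK1 had 3 counts in glycerol lactate and 0 in galactose with a fragment between ATP6 and OLI1 (35831 to 36204). COX1 fragments, which code for a cytochrome oxidase subunit, took 17 of the 208 counts in glycerol lactate (8.17%, 5.17 to 12.7%) and 2 of 63 in galactose (3.17%, 0.875 to 10.9%), beside 9.13% and 13.0% over all nuclear fragments. COB took 10 and 3 (4.81% and 4.76%).

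Longer fragments collect more counts, so each member fragment was also set against the 200 nuclear fragments nearest to it in length. Summed over the 32 fragments, between-chromosome counts were 1.20 times the mean of like-sized fragments in the glycerol lactate library, compared with 1.01 times in galactose, while mitochondrial counts were 1.22 and 1.07 times. FBP1 had the highest value in glycerol lactate in both classes, 1.53 and 1.75 times, and had 0.922 and 1.18 times in galactose. The median percentile of the member fragments in the between-chromosome class was 72.0 in glycerol lactate, against 58.5 in the galactose library.

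Among the 6 fragments that hold a start codon, PCK1 had 53 between-chromosome counts in glycerol lactate, at percentile 99.5, ACS1 had 50, at 97.5, and ADH2 had 37, at 95. FBP1 had 35, at percentile 82.0. The glyoxylate cycle genes were at the other end, ICL1 with 31 counts at percentile 17.5 and MLS1 with 16 at 10.5. In galactose the same 6 fragments lay between percentiles 10.2 and 83.0.

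The 9 fragments that lie wholly upstream of a start codon, from 5 of the genes, differed from fragments of like length in several classes. They held 69 mitochondrial counts in glycerol lactate, 2.21 times the mean of like-sized fragments, and 6 of the 9 lay above percentile 90. In galactose they held 17 counts, 1.26 times that mean, with 1 above percentile 90. Their non-adjacent within-chromosome counts were 3.19 times the mean of like-sized fragments in glycerol lactate, with 5 of the 9 above percentile 90, and 1.63 times in the galactose library. These include the pairs across short skipped fragments given above for MLS1, ADH2 and FBP1. The adjacent counts of the 9 fragments were 0.645 and 0.692 times that mean, and their between-chromosome counts 1.43 and 1.07 times. The 3 upstream fragments of FBP1, 45, 35 and 24 bp long, had 12, 10 and 7 mitochondrial counts in glycerol lactate, and 1, 4 and 2 in galactose. For mitochondrial counts the 6 start codon fragments had 1.18 times the mean in glycerol lactate and 1.54 times with galactose. The 17 fragments beyond the start codon had 0.923 times the mean in glycerol lactate, and in galactose 0.833 times. Over all 1250 nuclear fragments that lie between genes the mitochondrial values were 1.17 and 1.01 times. Their other within-chromosome values were 1.15 and 0.931 times, their adjacent values 0.867 and 0.860, and their between-chromosome values 1.15 and 0.984. The grouping by position was chosen after the values were seen, and base composition was not tested.

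**Figure D5:**
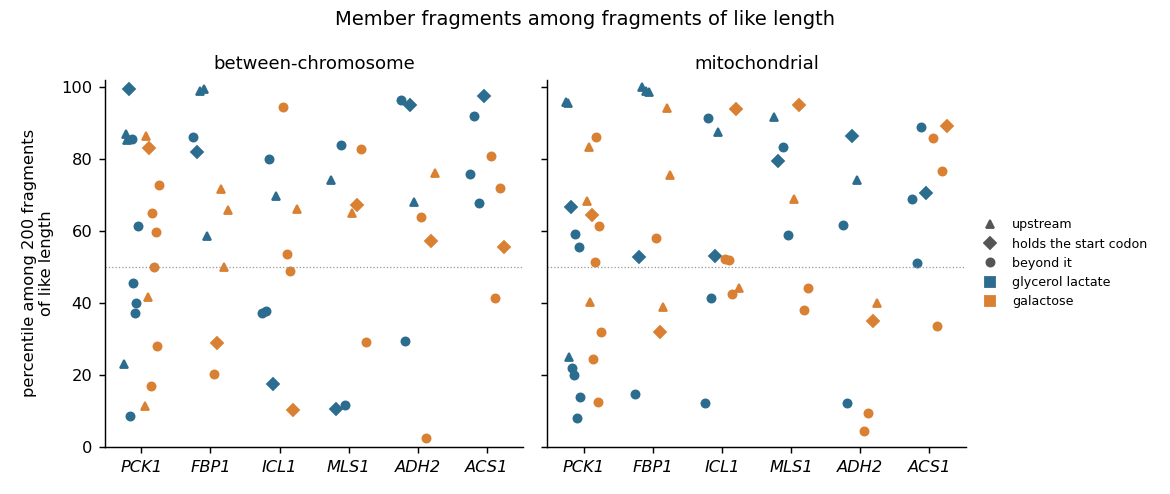
Percentile of each member fragment among the 200 nuclear fragments nearest in length, for between-chromosome (left) and mitochondrial counts (right), in glycerol lactate (blue) and galactose (orange). Triangles lie wholly upstream of the start codon, diamonds hold it and circles lie beyond it. The 3 upstream fragments of FBP1 lay above percentile 98 for mitochondrial counts in glycerol lactate.

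Of 26 other genes of the pathway and its control, 25 were found by name in the tables. Their median relative ratio was 0.996 for adjacent, 0.788 for other within-chromosome, 1.04 for between-chromosome and 0.966 for mitochondrial counts. Calls were most frequent in the other within-chromosome class, with 1 gene higher (GID8, 2.37) and 8 lower (down to ICL2 at 0.238), a smaller share than the 48.3% of all genes called lower there. Between chromosomes 1 of the 25 was called higher and none lower, against 3.45% and 0.089% of all genes, a share close to that background. It was VID30, a subunit of the ubiquitin ligase that marks gluconeogenic enzymes for degradation, which had 116 counts in glycerol lactate and 111 in galactose (2.05, 1.57 to 2.69). With mitochondrial DNA 4 were called higher and 1 lower, against 11.2% and 7.48% of all genes, and 3 of the higher ones had an interval that left out 1, against 1.94%. The lower bounds of these 3 intervals were 1.01 to 1.04. These were PYC1, a pyruvate carboxylase that makes the oxaloacetate used by PCK1, with 50 and 7 counts (2.23, 1.01 to 5.83), VID24, the substrate receptor of the same ligase, with 36 and 4 (2.81, 1.01 to 10.9), and GID8, another of its subunits, with 65 and 10 (2.03, 1.04 to 4.43). The listed genes of this ligase did not move together. With mitochondrial DNA VID28, FYV10 and GID7 had ratios of 0.993, 0.832 and 0.646, and RMD5 and VID30 had 1.35 and 2.18, all with intervals that held 1. Between chromosomes VID28, GID7 and RMD5 had 0.803, 0.790 and 0.839, and VID24, GID8 and FYV10 had 1.04, 1.15 and 1.18. The activator CAT8 had between-chromosome and mitochondrial ratios of 0.877 and 1.03, ADR1 1.10 and 0.684, and the kinase gene SNF1 1.59 and 1.37.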

How the data were processed

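GCC libraries of glycerol lactate and galactose cultures were analysed, 1 combined library each. The authors mapped read pairs with SOAP, allowing no mismatch, joined them into fragment pairs with Topography and deposited counts per fragment pair without normalization, for uniquely and for all mapped sequences. Each pair is listed in both orders and was counted once. Members and gene lists were chosen with earlier results of these data known.

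Relative ratios have exact conditional binomial intervals, shares Wilson intervals and single counts Poisson intervals, all at 95%. A gene was called at 2-fold or more, and ratios were computed for every gene named in the tables as background. Length-matched values use the 200 nuclear fragments outside the rDNA nearest in length. A pair within a gene counts for both its fragments there. The alternatives covered the mapping, the fragments kept, the scale, the strongest pair or gene, distinct pairs, the matching and the cut-off of 3 counts. The text names the 6 members, their strongest partners of at least 3 counts, list genes called between chromosomes or with mitochondrial DNA whose interval leaves out 1, and the deleted marker genes. CAT8, ADR1, SNF1, the other listed genes of the ubiquitin ligase and, within chromosomes, GID8 and ICL2 are given besides, chosen after their values were seen. The ratios were tested on simulated counts drawn independently. That setting holds no amplified copies, so it does not bear on that limit of the intervals. The tools were scipy 1.17.1, pandas 2.3.3, numpy 2.4.6 and matplotlib 3.10.9 under Python 3.11.15. Member sequences were not used here. For 1 between-chromosome pair at the cut-off the partner is not reported here.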

Additional observations from a re-analysis of the deposited data

Results flagged for a closer look

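Counts outside the 4 classes were found for the members and used in no comparison. Pairs of a member fragment with itself, which a circularised fragment would give, had 3 counts in glycerol lactate and 55 in galactose, the latter above the 3 counts that a count of 0 allows. Relative to all such pairs of nuclear fragments the ratio was 0.721 (0.144 to 2.22). Pairs of a member with the 2-micron plasmid had 18 counts in glycerol lactate and 51 in galactose, also above that limit, with a relative ratio of 0.743 (0.408 to 1.29).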

How the results depend on the processing

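No paired analysis was possible because the replicates were combined and each condition has 1 library, and for the same reason none could be left out. The scale decides the direction of the raw comparison. With all counts of a table as the scale, the ratios of the 6 genes were 1.41 for adjacent, 0.472 for other within-chromosome, 0.384 for between-chromosome and 2.40 for mitochondrial pairs. With all mapped sequences the other within-chromosome ratio was 0.619, on the other side of 1, and the between-chromosome ratio 0.847. The other within-chromosome ratio was 1.11 with only fragments that overlap the gene, 1.24 without PCK1, 1.26 without the strongest pair, 1.11 with distinct pairs and 1.03 with partners at 10 kb or more. The FBP1 ratio in that class turned to 0.896 with all mapped sequences and to 0.701 with all counts as scale. MLS1 and ADH2 also went below 1 there with all mapped sequences (0.658 and 0.633) and without their strongest pair, as did ACS1 between chromosomes with all mapped sequences (0.721). The adjacent share was 59.98%, 74.9% and 72.0% in glycerol lactate with all mapped sequences, overlapping fragments only and without PCK1, and 36.7% and 46.6% in galactose with the first 2 of these. Pairs at the cut-off depended on it: with 2 counts they numbered 87, 73 and 27 in glycerol lactate (other within-chromosome, between-chromosome, mitochondrial) and 321, 74 and 4 in galactose, and with 5 counts 20, 0 and 0 and 21, 0 and 0, in place of 40, 4 and 2 and 108, 5 and 1. With all mapped sequences 36 and 37 between-chromosome pairs reached 3 counts, and 1 count in galactose joined 2 members. The cause of these shifts was not tested. The median length-matched percentiles kept their side of 50 under the 4 alternatives run. Single between-chromosome and mitochondrial pairs lie at 1 to 4 counts, so depth limits every statement on them.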
